A study of Mus musculus with 2 samples.

Results

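The cells described are the endothelial cells of the lung, which line its blood and lymph vessels. They were picked by transcript from 2 droplet single-cell RNA libraries. A kept cell (at least 200 genes, at least 500 UMIs, which are transcript tags, and at most 20% mitochondrial UMIs) was taken when Cdh5, Cldn5, Pecam1, Epas1 and Calcrl together reached 4 UMIs, with at least 1 from Cdh5 or Cldn5. It could hold at most 1 UMI of Col1a1 and Col1a2 together, no UMI of Cd3e, Cd79a or Epcam, and at most 6% of its UMIs from the neutrophil genes S100a8 and S100a9. Of 20390 kept cells 347 met the rule, which is 1.70%.

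The libraries were made from left lower lobes of the lungs of ICR mice, which are outbred. The mice were male and 6 to 8 weeks old. Mice of the LPS library received lipopolysaccharide, and mice of the LPS_MCZ library received lipopolysaccharide and an intraperitoneal injection of miconazole (MCZ), an azole antifungal. The sample label gives the miconazole dose as 0.2 mg/kg and the protocol text as 1 mg/kg, and there was no library of untreated mice. Tissue of every mouse in a group was pooled before library preparation. With 1 library in each group the groups could not be tested against each other, and treatment and library cannot be told apart.

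Endothelial cells hold the barrier between blood and air through junctions built on VE-cadherin (Cdh5) and claudin-5 (Cldn5). Lipopolysaccharide and the cytokines it releases make them display selectins and adhesion molecules that catch leukocytes, secrete chemokines, and switch on interferon-stimulated genes. Most of the lung's endothelium is capillary and comes in 2 kinds. Aerocytes express the carbonic anhydrase Car4 and face the air spaces. General capillary cells express Gpihbp1, the protein that anchors lipoprotein lipase, while the clotting protein gene Vwf marks larger vessels and Prox1 and Mmrn1 mark lymphatic vessels.

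The rule took 193 of 12076 LPS cells (1.60%, exact binomial interval 1.38 to 1.84) and 154 of 8314 LPS_MCZ cells (1.85%, 1.57 to 2.17). The intervals, here and below at 95%, cover counting error only, and those of the 2 libraries overlapped. The cells had a median of 4620 UMIs in the LPS library and 4038 in the LPS_MCZ library. Their UMIs were unevenly spread: the 20 cells with most UMIs held 37.9% of the 1308063 LPS UMIs and 50.6% of the 1250960 LPS_MCZ UMIs. The median mitochondrial share was 2.08% and 2.42%, against 0.288% and 0.283% in all kept cells. At the limit of the rule, 10 LPS and 12 LPS_MCZ cells held exactly 4 UMIs of the rule genes, and 33 and 19 cells held 3 and met every other clause. Free RNA, estimated from S100a8 and S100a9, was put at 5.93% and 6.66% of the cells' UMIs. The rule limits the same 2 genes and set aside 20 LPS and 15 LPS_MCZ cells by them. The estimate therefore depends on the rule and is no independent measure.

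The label was checked in each cell against genes that the rule did not use. In 295 of the 347 cells (161 LPS, 134 LPS_MCZ) the 5 rule genes made up at least 0.2% of the cell's UMIs, and these are called marker-rich below. At least 1 UMI of Kdr, Tie1, Egfl7 or Ramp2, all endothelial genes, was found in 153 of the 161 LPS and 129 of the 134 LPS_MCZ marker-rich cells. In the other 52 cells the rule genes were below 0.2% of UMIs. Those marker-poor cells were large, with medians of 11573 and 19080 UMIs, and held 35.4% and 32.0% of all UMIs of the endothelial cells. The leukocyte gene Ptprc had a UMI in 32 of 32 and 19 of 20 of them, and Kdr, Tie1, Egfl7 or Ramp2 in 8 of 32 and 8 of 20. The data therefore go against the endothelial label for most marker-poor cells. Macrophage and monocyte markers took 0.950% and 0.934% of their UMIs, against 0.106% and 0.121% in the marker-rich cells. Gene lists are given below for all 347 cells and for the marker-rich cells, a split chosen after the data were seen, and single genes for all cells unless the marker-rich cells are named. Of the 47 genes that are compared below between the libraries and were called in all cells, 43 were called in the same direction in the marker-rich cells, and the exceptions were Ifi207, Ifitm1, Ccl4 and Cavin2. Many of these genes were picked because they were called in either set, and the sets share cells, so this is no independent check. Among all genes measured in both sets, 60.9% of the higher and 63.0% of the lower calls in all cells were repeated in the marker-rich cells.

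**Figure D1:**
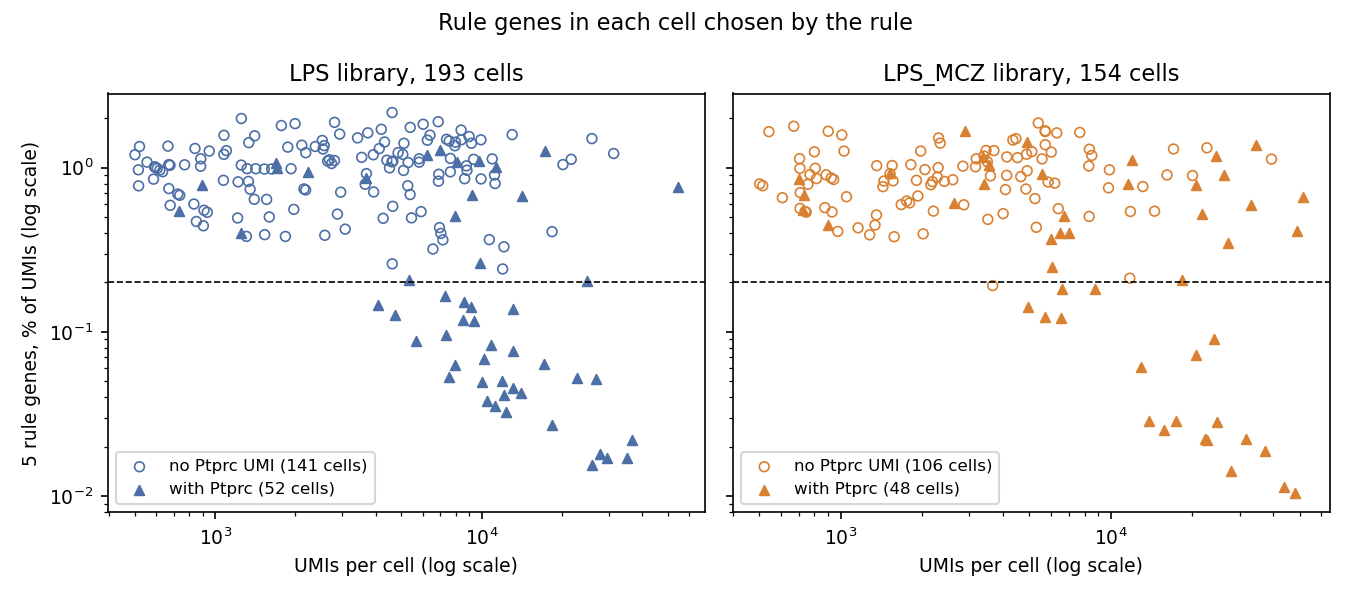
Each point is a cell chosen by the rule, plotted by its UMIs (log scale, horizontal) and the share of them from the 5 rule genes (log scale, vertical). The left panel is the LPS library and the right panel the LPS_MCZ library; filled triangles are cells with a Ptprc UMI and the dashed line marks 0.2%. Below the line nearly all cells carry Ptprc and most are large.

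Other cells left traces in the marker-rich cells. Ptprc had a UMI in 20 of the 161 LPS and 29 of the 134 LPS_MCZ marker-rich cells. Cells without a Ptprc UMI and with few or no platelet UMIs held 40.2% of the LPS and 30.3% of the LPS_MCZ UMIs of all endothelial cells. Of 18 macrophage and monocyte markers 15 had UMIs in the LPS library and 17 in the LPS_MCZ library. Of 14 pan-leukocyte and lymphocyte markers 9 were found in each library, and their summed level was 274 CPM in the LPS library and 553 CPM in the LPS_MCZ library (CPM is counts per 1e+06 UMIs of the same cells). Neutrophil markers summed to 9953 and 12441 CPM, platelet markers to 300.4 and 273.7 CPM and erythroid markers to 1372 and 2788 CPM. For scale, the 5 rule genes summed to 9918 and 8632 CPM in the same cells. In all kept cells the neutrophil markers summed to 138828 and 131344 CPM. The epithelial sum was 460.1 and 681.4 CPM, and fibroblast, pericyte and mesothelial sums were each under 100 CPM in both libraries. Summed leukocyte, neutrophil, erythroid and epithelial traces were thus higher in the LPS_MCZ cells, and their part in the ratios below was not tested. The median log2 ratio of LPS_MCZ over LPS for the erythroid list was 1.03 from summed UMIs and −0.07 with each cell weighted equally. At equal weight the pan-leukocyte, neutrophil and epithelial medians were 0.78, 0.52 and 0.85.

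Capillary genes were the most frequent of the vessel-type genes. Car4 had at least 1 UMI in 63 of 193 LPS cells (32.6%, 26.1 to 39.7) and 64 of 154 LPS_MCZ cells (41.6%, 33.7 to 49.8). Gpihbp1 was found in 83 LPS cells (43.0%, 35.9 to 50.3) and 63 LPS_MCZ cells (40.9%, 33.1 to 49.1). Vwf was found in 29 (15.0%, 10.3 to 20.9) and 25 (16.2%, 10.8 to 23.02), and Prox1 or Mmrn1 in 6 (3.11%, 1.15 to 6.64) and 7 (4.55%, 1.85 to 9.14). For each of the 4 the intervals of the libraries overlapped.

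Lymphocytes (at least 2 UMIs of Cd3e and Cd79a, 769 LPS and 312 LPS_MCZ cells, medians 6427 and 7868 UMIs) should lack these genes and show the background. Car4 had a UMI in 6.24% and 8.97% of them, Gpihbp1 in 0.52% and 1.28%, Vwf in 0.13% and 0.96%, and Prox1 or Mmrn1 in 0.65% and 0.64%. All 4 shares in the endothelial cells were above it. The Car4 background itself differed between the lymphocytes of the LPS library (16.8 CPM) and of the LPS_MCZ library (73.5 CPM), against 415 and 365 CPM in the endothelial cells. With each cell thinned to 2000 UMIs, which left out 60 LPS and 49 LPS_MCZ cells, the Car4 shares were 27.1% and 38.1%, those of Gpihbp1 31.6% and 31.4%, of Vwf 9.77% and 8.57%, and of Prox1 or Mmrn1 2.26% and 2.86%. Thinned lymphocytes gave Car4 shares of 1.59% and 2.88%. In the marker-rich cells, unthinned, the shares were 35.4% and 43.3% for Car4, 50.9% and 46.3% for Gpihbp1, 15.5% and 17.9% for Vwf, and 3.11% and 3.73% for Prox1 or Mmrn1.

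**Figure D2:**
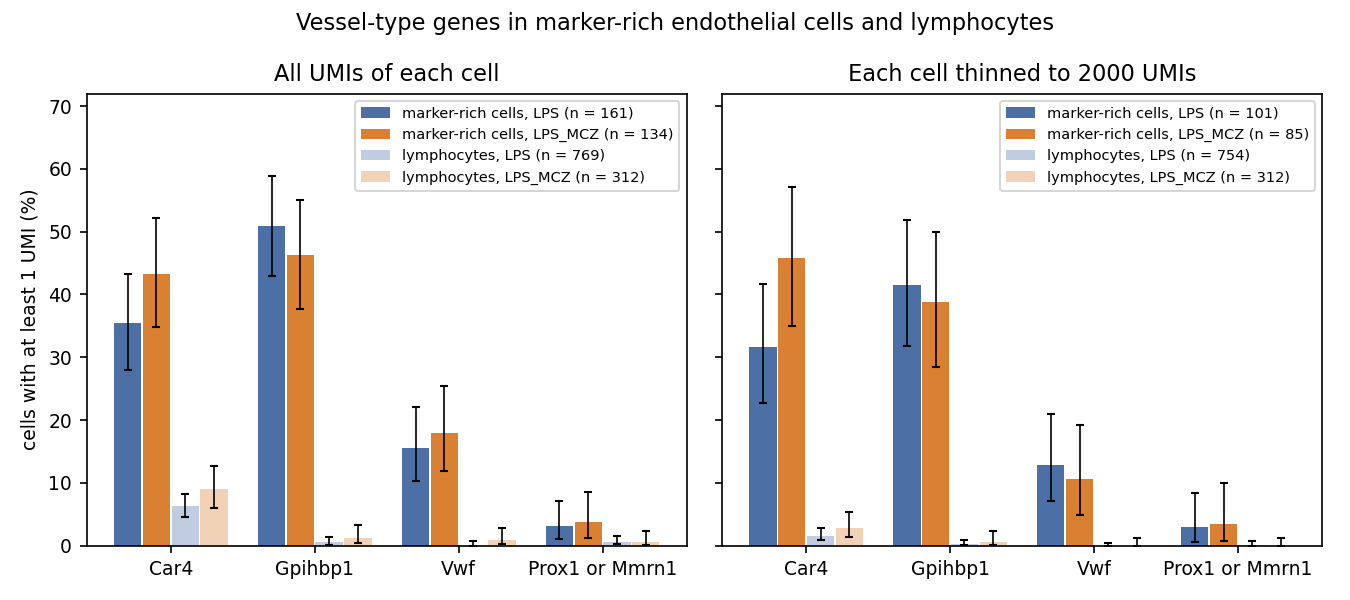
Bars give the percentage of marker-rich endothelial cells (solid) and lymphocytes (pale) with at least 1 UMI of each gene, in the LPS and LPS_MCZ libraries, with 95% exact binomial intervals for counting error. The left panel uses all UMIs and the right panel 2000 UMIs per cell. Car4 and Gpihbp1 stand highest, Prox1 or Mmrn1 lowest, and the interval bars of the libraries overlap for every gene.

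The vessel-type genes split the marker-rich cells into groups that also differed in genes not used for the split. Cells with Prox1 or Mmrn1 were set apart first (5 LPS and 5 LPS_MCZ cells), and the rest were divided in turn by Car4 and Gpihbp1 together (24 and 28), Vwf (21 and 14), Car4 without Gpihbp1 (30 and 28), Gpihbp1 without Car4 (42 and 24) and none of them (39 and 35). A share of a group can be set by depth, since the cells with none had medians of only 1219 and 1361 UMIs.

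Cells with Car4 alone carried other aerocyte genes. The endothelin receptor gene Ednrb stood at 254 CPM in them, summed over both libraries, and at 7.46 CPM in the cells with Gpihbp1 alone. The transcription factor gene Tbx2 stood at 313 and 11.2 CPM and the stem cell factor gene Kitl at 1384 and 280.1 CPM. The reverse held for general capillary genes. Kit, the receptor of stem cell factor, stood at 29.5 CPM in cells with Car4 alone and 694 CPM in cells with Gpihbp1 alone. Plvap, which forms the diaphragms of fenestrae and caveolae, stood at 26.6 and 977 CPM, Cd93 at 121 and 1623 CPM and the angiopoietin receptor gene Tek at 53.1 and 649 CPM. Cells with both Car4 and Gpihbp1 lay between the 2 for Ednrb (194 CPM), Kit (303 CPM), Plvap (516 CPM) and Tek (326 CPM). Doublets of the 2 capillary kinds were not told apart from single cells that express both genes.

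Vwf cells carried the genes of larger and venous vessels. The P-selectin gene Selp stood at 518 CPM in them and at 2.95 to 81.1 CPM in the 5 other groups, the venous transcription factor gene Nr2f2 at 357 CPM (0 to 162 elsewhere) and Vcam1, which binds leukocyte integrins, at 866 CPM (12.5 to 178 elsewhere). Over all endothelial cells, most LPS_MCZ UMIs of Vcam1 lay in 1 cell, as given below. Both Vwf and Gpihbp1 were found in 16 LPS and 18 LPS_MCZ marker-rich cells. Ccl21a, a chemokine of lymphatic vessels, and Reln, a lymphatic matrix gene, had UMIs in cells with Prox1 or Mmrn1 and in no other group. All 182 Ccl21a UMIs were of the LPS_MCZ library and 95% of them came from 1 cell. The LPS library had 0 Ccl21a UMIs. The 10 cells with Prox1 or Mmrn1 were large (medians of 10687 and 16161 UMIs) and also carried Car4 and Gpihbp1, at 493 CPM each, so their genes go against a purely lymphatic label. Of the LPS cells among them 4 had Mmrn1 and 1 had Prox1. Platelet markers with at least 50 UMIs numbered 2 in this group and at most 1 in each other group. Without the cell of most UMIs in each library this group had 1.

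For the comparison of the libraries, each gene's UMIs were added up across a library's endothelial cells and scaled to CPM. The log2 ratio is LPS_MCZ over LPS with 1 CPM added to both, so a negative value is lower with miconazole, and brackets hold the counting interval of the ratio without that addition. A gene was called higher or lower when the ratio passed 0.5 in size and the interval lay off 0. Of 6988 genes with at least 50 UMIs, 533 (7.63%) were called higher and 405 (5.8%) lower in all endothelial cells, with a median ratio of 0.01. In the marker-rich cells 467 of 5570 genes (8.38%) were called higher and 406 (7.29%) lower. Among the genes measured in both, 235 were called higher in both sets (60.9% of the calls in all cells, 50.3% of those in marker-rich cells) and 192 lower (63.0% and 47.3%). The calls describe 2 libraries and not variation between mice. Summed ratios also take in the mix of vessel groups. Cells with Gpihbp1 alone held 188952 of 845416 marker-rich UMIs in the LPS library and 79135 of 851211 in the LPS_MCZ library. In the marker-rich cells the list median was 0.12 for aerocyte genes and −0.33 for general capillary genes. In the cells without Ptprc or platelet UMIs (at most 1 UMI of Pf4 and Ppbp was allowed) these medians were 0.49 and −0.49. How far this mix enters the ratio of any gene was not tested.

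The 5 genes of the rule, whose levels follow from how cells were chosen, were not called. Cdh5 stood at 1163 CPM in the LPS library and 1241 in the LPS_MCZ library, Cldn5 at 1838 and 1378, Pecam1, a junction and leukocyte-passage receptor, at 983 and 818, Epas1, the hypoxia factor HIF-2α, at 1363 and 1421, and Calcrl, the adrenomedullin receptor, at 1251 and 1145. Of 30 pan-endothelial identity genes 0 were called higher and 1 lower (7.63% and 5.8% of all genes were), with a list median of −0.11. In the marker-rich cells 0 were called higher and 4 lower (8.38% and 7.29% of all genes). There 23 of the 30 had ratios below 0, and the median was −0.19.

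Interferon-stimulated genes were lower in the LPS_MCZ endothelial cells. Of the 70 measured members of a 73-gene interferon list, 14 were called lower (5.8% of all genes were) and 0 higher, 58 had ratios below 0, and the median was −0.27. In the marker-rich cells 20 of 68 were called lower (7.29% of all genes) and 0 higher, with a median of −0.35, and the summed list went from 41506 to 33153 CPM. The same list was also lower outside the endothelium: 22 of 70 members were called lower and 0 higher in lymphocytes (3.2% and 8.34% of all their genes, median −0.36). In all kept cells other than the endothelial cells 19 of 71 were called lower and 0 higher (3.25% and 4.91% of all their genes, median −0.32). The lower values were thus not limited to the endothelial cells.

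Isg15 encodes a ubiquitin-like protein that is joined to other proteins in antiviral responses. It stood at 1220 CPM in the LPS library and 755 CPM in the LPS_MCZ library, a log2 ratio of −0.69 [−0.81, −0.57], and at 1540 and 791 CPM in the marker-rich cells (−0.96). Rsad2, the antiviral enzyme viperin, stood at 748 and 406 CPM, −0.88 [−1.04, −0.72]. Usp18, which removes Isg15 from proteins and damps interferon signalling, stood at 213 and 113 CPM, −0.91 [−1.22, −0.62]. These 3 were called lower in both sets of cells.

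The RNA-binding antiviral genes Ifit1 (333 and 228 CPM, −0.55), Ifit2 (132 and 79.9 CPM, −0.72) and Ifit3 (431 and 277 CPM, −0.64) were called lower as well. Ifitm2, a membrane protein that blocks virus entry, stood at 2107 and 1461 CPM, −0.53 [−0.61, −0.44]. Its neighbour Ifitm3 (5660 and 4559 CPM, −0.31) was not called. Bst2, the virus tether tetherin, was called in the marker-rich cells alone (1734 and 1151 CPM, −0.59). The transcription factor gene Irf7 (−0.36) did not pass the threshold in all cells and did in the marker-rich cells (−0.52). The guanylate-binding protein gene Gbp4 had the highest ratio on the list, at 684 and 941 CPM, 0.46 [0.33, 0.59], and was not called. The ratio of the interferon-induced chemokine Cxcl10 (1631 and 1269 CPM) was −0.36 [−0.46, −0.27]. Ifi207 and Ifitm1 were called lower in all cells but not in the marker-rich cells, where Ifi207 had 8 UMIs in each library and Ifitm1 a ratio of 0.12.

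The promoters of Rsad2 and Ifitm2 are shown because both genes were called lower and hold the core of the element through which interferon factors act. The sequences are RefSeq's on GRCm38.p6, 250 bases before to 50 after the gene start, read 5′ to 3′ on the gene's strand, and lie at chr12:26456403-26456702 (minus strand) and chr7:140955912-140956211 (minus strand). Capitals mark the motif searched on both strands, which is GAAA, any 2 bases and GAAA again.
Rsad2: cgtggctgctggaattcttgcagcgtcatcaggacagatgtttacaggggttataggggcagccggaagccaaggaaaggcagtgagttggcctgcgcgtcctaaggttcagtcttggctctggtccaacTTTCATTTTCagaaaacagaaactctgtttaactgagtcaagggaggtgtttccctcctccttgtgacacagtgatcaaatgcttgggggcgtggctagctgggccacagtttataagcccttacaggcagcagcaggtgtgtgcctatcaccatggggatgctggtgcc
Ifitm2: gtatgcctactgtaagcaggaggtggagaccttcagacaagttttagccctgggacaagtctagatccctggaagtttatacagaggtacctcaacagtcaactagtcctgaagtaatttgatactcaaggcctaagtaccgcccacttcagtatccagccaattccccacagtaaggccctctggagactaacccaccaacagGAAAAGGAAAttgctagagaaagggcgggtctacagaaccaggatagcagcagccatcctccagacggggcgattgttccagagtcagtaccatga
The match begins 120 bases before the start of Rsad2 and 46 before that of Ifitm2. Among all 27025 genes with a RefSeq promoter, 1079 (3.99%) hold the motif in at least 1 promoter. Of the interferon list's 55 genes with a promoter 27 (49.1%) do. It was found in 10 of the 19 members called lower in either set (52.6%) and in 16 of the 35 other measured members (45.7%), so the motif was about as frequent in both.

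The interferon list did not move alike in all vessel groups of the marker-rich cells. Its median ratio was −0.42 in cells with Car4 alone, −0.46 in cells with both Car4 and Gpihbp1, −0.51 in cells with Gpihbp1 alone and −0.29 in cells with none of the genes. The medians of all genes measured in these groups were 0.03, −0.04, −0.19 and −0.28, so in cells with none of the genes the list was close to all genes. In these 4 groups 21 of 54, 28 of 63, 22 of 52 and 15 of 43 measured members were called lower (10.6%, 11.5%, 17.8% and 30.9% of all genes measured in the groups), and 2, 2, 2 and 3 higher (12%, 10.7%, 8.83% and 12.9% of all genes). In Vwf cells the median was 0.26 (0.10 for all genes), with 15 of 46 members called higher (14.8% of all genes) and 2 lower (13.7%), and without the Vwf cell of most UMIs in each library it was 0.39. Rsad2 stood at 1535 and 215 CPM in cells with Gpihbp1 alone and at 134 and 739 CPM in Vwf cells, which numbered 21 and 14. Isg15 stood at 1080 and 1034 CPM in Vwf cells and at 1761 and 589 CPM in cells with Car4 alone. The median of 0.29 in cells with Prox1 or Mmrn1 (−0.11 for all genes) turned to −0.44 without the cell of most UMIs in each library. The median of all genes was then −0.35, so the list was close to all genes. Of 21 members 6 were then called lower and 2 higher, against 96 and 63 of 292 genes. The difference between the groups was not tested.

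Some genes of antigen presentation were called lower. Of 18 measured MHC class I genes, 3 were called lower (5.8% of all genes were) and 0 higher, with 12 of 18 ratios below 0 and a median of −0.20. Among the marker-rich cells 4 were called lower (7.29% of all genes) and 0 higher, with a median of −0.30. H2-Q7, a nonclassical class I gene, stood at 182 and 99.9 CPM, −0.86 [−1.19, −0.55], and H2-Q6 at 156 and 82.3 CPM, −0.91 [−1.28, −0.57]. These genes are near-identical copies, and how reads were divided between them is not given in the sources used here. Classical H2-K1 (2894 and 2096 CPM, −0.47) and B2m, the light chain of class I (3665 and 2700 CPM, −0.44), were just short of the threshold in all cells.

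Among 6 measured MHC class II genes 3 were called lower and 0 higher in all cells (5.8% and 7.63% of all genes were). In the marker-rich cells 4 of 4 were called lower (7.29% of all genes). The medians were −0.66 in all cells and −1.30 in the marker-rich cells. Cd74, the invariant chain that guides class II molecules, stood at 585 and 229 CPM, −1.35 [−1.56, −1.16], and at 733 and 228 CPM in the marker-rich cells, where 33.5% of LPS and 26.9% of LPS_MCZ cells had a UMI. H2-Ab1, a class II chain, stood at 175 and 65.5 CPM, −1.40 [−1.80, −1.05]. In lymphocytes Cd74 stood at 1285 and 1156 CPM and the class II list had a median of −0.26 over 10 genes. Within the marker-rich cells Cd74 stood at 823 and 135 CPM in cells with Car4 and Gpihbp1, at 937 and 215 CPM in cells with Gpihbp1 alone, and at 99 and 145 CPM in cells with Car4 alone.

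Adhesion genes that catch leukocytes did not move together. Of 17 measured members of 21, 1 was called higher and 3 lower in all cells (7.63% and 5.8% of all genes were). The median was −0.17. In the marker-rich cells 2 were called higher and 3 lower (8.38% and 7.29% of all genes), with a median of −0.25. Icam1, which binds neutrophil integrins, stood at 1482 CPM in the LPS library and 1403 CPM in the LPS_MCZ library, −0.08 [−0.17, 0.01], and was not called. Sele, the E-selectin gene, had 65 LPS UMIs and 7 LPS_MCZ UMIs (49.7 and 5.60 CPM), −2.94 [−4.52, −2.03]. The Sele UMIs came from 6.22% of LPS cells and 1.30% of LPS_MCZ cells, so few cells carry that ratio. Selp stood at 75.7 and 76.7 CPM (0.02), but with each cell weighted equally its ratio was −1.23. Vcam1 was called higher (83.3 and 157 CPM, 0.90), yet 64% of its LPS_MCZ UMIs lay in 1 cell and the equal-weight ratio was −0.16.

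The calls of chemokine genes differed in direction between all cells and the marker-rich cells, while both list medians were below 0. In all cells 9 of 25 measured members were called lower and 2 higher (5.8% and 7.63% of all genes were), with a median of −0.21. In the marker-rich cells 3 of 20 were lower and 7 higher (7.29% and 8.38% of all genes), with a median of −0.05. By the estimate from S100a8 and S100a9, free RNA could make up at least 0.25 of the level, in either library, of 6 of the 25 and 8 of the 20 members. Without those members the medians were −0.20 and −0.26. Ccl4, a monocyte-attracting chemokine made mainly by leukocytes, stood at 1025 and 413 CPM in all cells, −1.31, and at 186 and 278 CPM in the marker-rich cells, 0.58. In the latter 60% of the LPS_MCZ Ccl4 UMIs came from 1 cell. Cxcl12, which vessels make to hold CXCR4-bearing cells, was lower in both, at 125 and 36.8 CPM in all cells, −1.74 [−2.27, −1.29], and at 194 and 54.0 CPM in the marker-rich cells. Ackr3, a receptor that takes up Cxcl12, stood at 257 and 129 CPM, −0.99 [−1.28, −0.72]. Both genes were near 0 in lymphocytes, where Cxcl12 was at 0.164 and 1.24 CPM. Cxcl12 was lower in each group that expressed it with at least 50 UMIs: 153 and 60.9 CPM in cells with Car4 and Gpihbp1, 291 and 101 CPM with Gpihbp1 alone, and 586 and 83.0 CPM with Vwf.

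Genes of NF-κB, the factor that lipopolysaccharide activates, were mostly below 0 in all cells and on both sides of 0 in the marker-rich cells. Of 25 measured members 21 had ratios below 0 in all cells (median −0.23). There 6 were called lower and 0 higher (5.8% and 7.63% of all genes were). Of 24 measured in the marker-rich cells 10 had ratios below 0 (median 0.09). Of these 24, 3 were called lower and 4 higher (7.29% and 8.38% of all genes). In the cells without UMIs of Ptprc or platelet genes the median was −0.33. There 8 of 18 measured members were called lower and 2 higher, while 659 of all 3629 genes were called in either direction. Bcl3, a nuclear IκB protein, was lower in both, at 223 and 99.9 CPM, −1.15 [−1.47, −0.85]. Ier3, an early response gene, stood at 668 and 379 CPM, −0.82 [−0.98, −0.66]. The feedback inhibitor gene Nfkbia stood at 1798 and 2058 CPM, 0.19, and the lipopolysaccharide receptor gene Tlr4 at 51.2 and 71.9 CPM, 0.48, neither of them called in all cells. In the marker-rich cells Tlr4 was called higher (0.82). Pan-leukocyte markers were higher in those LPS_MCZ cells too (the sums of 274 and 553 CPM above), and their part in these lists was not tested.

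Immediate early genes, which stress and tissue digestion can switch on, had a median of −0.01 over 28 members. Of these, 2 were called higher and 5 lower (7.63% and 5.8% of all genes were). In the marker-rich cells the median was 0.09 over 27 members, with 4 higher and 5 lower (8.38% and 7.29% of all genes). Fosb stood at 66.5 and 217 CPM, 1.69 [1.35, 2.07], and Fos at 454 and 648 CPM, 0.51 [0.36, 0.67]. Both are AP-1 subunit genes called higher in all and in marker-rich cells. Gadd45g, a growth arrest gene, was lower, at 116 and 55.2 CPM, −1.06 [−1.51, −0.66].

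**Figure D3:**
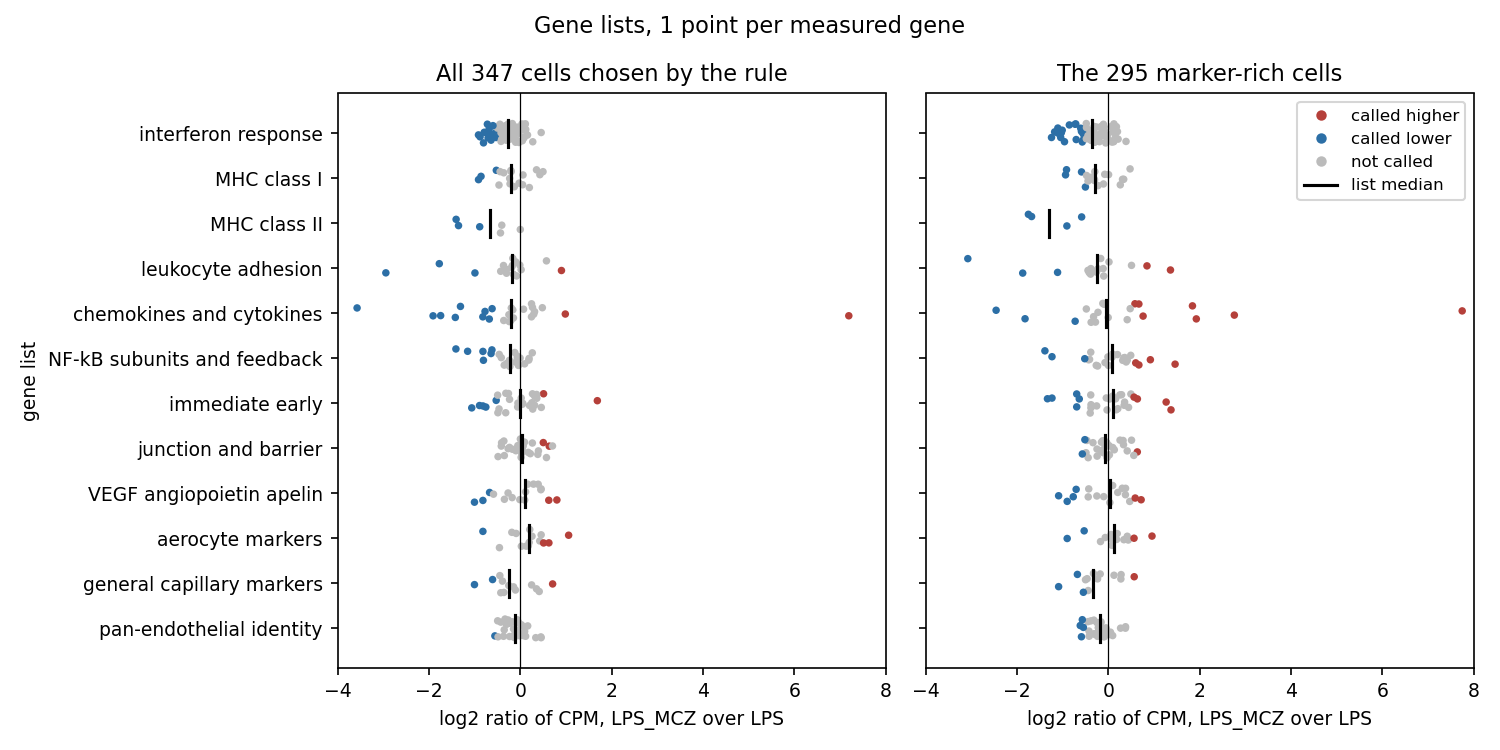
Each point is a measured gene of a list (vertical), at its log2 ratio of CPM in LPS_MCZ over LPS (horizontal), for all 347 cells on the left and the 295 marker-rich cells on the right; red points were called higher, blue points lower, and black bars are list medians. Interferon and MHC points lie mostly left of 0 in both panels, while chemokine points spread to both sides and NF-κB points lie mostly left of 0 in the left panel only.

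Few barrier genes were called. Of 29 measured junction and barrier genes 2 were called higher and 0 lower (7.63% and 5.8% of all genes were), with a median of 0.03. In the marker-rich cells 1 was called higher and 2 lower (8.38% and 7.29% of all genes). There 18 of the 29 had ratios below 0, and the median was −0.07. Tjp1, which ties tight junctions to actin, stood at 333 CPM in the LPS library and 321 CPM in the LPS_MCZ library, −0.05 [−0.25, 0.15]. Cldn5, a gene of the rule that was not called, had ratios from −0.49 to −0.25 under the alternative settings described at the end. The caveolar genes Cav2 (87.2 and 136 CPM, 0.64) and Cavin2 (236 and 336 CPM, 0.51) were the 2 called higher. S1pr1, the sphingosine receptor that tightens junctions, was called lower in the marker-rich cells alone, at 1479 and 995 CPM, −0.57 [−0.70, −0.44].

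Receptors and ligands of vessel growth went in both directions. Of 17 measured VEGF, angiopoietin and apelin genes 2 were called higher and 3 lower (7.63% and 5.8% of all genes were). The median was 0.10. In the marker-rich cells 2 were called higher and 4 lower (8.38% and 7.29% of all genes), with a median of 0.03. Flt4, the VEGF-C receptor, was called higher, at 36.7 and 64.8 CPM, 0.80 [0.29, 1.37]. The VEGF receptor gene Kdr (209 and 287 CPM, 0.45) stopped short of the threshold, and Flt1 (545 and 592 CPM, 0.12) was close to 0. The peptide Apln, an aerocyte gene, had 36 and 19 UMIs and its receptor Aplnr, a general capillary gene, 39 and 18 UMIs. All of these lay in marker-rich cells, where the ratios were −0.90 [−1.82, −0.09] and −1.09 [−2.02, −0.29]. The Notch ligand genes Dll4 (71.9 and 44.8 CPM, −0.67) and Dll1 (94.0 and 37.6 CPM, −1.30 [−1.84, −0.83]) were called lower, and so was the gap junction gene Gja4 (93.3 and 43.2 CPM, −1.09). The part of the vessel mix in these ratios was not tested.

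Among genes of vascular tone and hypoxia, Edn1, the precursor of the constrictor endothelin-1, stood at 230.1 and 122 CPM, −0.91 [−1.20, −0.63]. Hif1a, the oxygen-regulated transcription factor, stood at 520 and 322 CPM, −0.69 [−0.87, −0.51]. Edn1 had its lowest ratio in Vwf cells, at 730 and 113 CPM, and stood at 229 and 240 CPM in cells with Car4 and Gpihbp1. Of the coagulation genes Vwf was called higher (54.3 and 166 CPM, 1.60), but 60% of its LPS_MCZ UMIs lay in 1 cell and its equal-weight ratio was −0.23. Thbd, the anticoagulant thrombomodulin, was not called (204 and 191 CPM, −0.09).

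Acute phase and stress genes included several that were lower in both sets of cells. Cebpd, a transcription factor of the acute phase, stood at 992 CPM in the LPS library and 517 CPM in the LPS_MCZ library, −0.94 [−1.08, −0.80], and at 1505 and 728 CPM in the marker-rich cells. The metallothionein gene Mt1, which binds zinc, stood at 1274 and 743 CPM, −0.78 [−0.89, −0.66]. Mt1 in lymphocytes went the other way, at 74.3 and 229 CPM. Upp1, a uridine phosphorylase, stood at 297 and 141 CPM, −1.07 [−1.34, −0.81]. Lcn2, the iron-sequestering lipocalin-2, was level at 3756 and 3949 CPM (0.07). Of the 22 measured members of this list 7 were called lower and 5 higher (5.8% and 7.63% of all genes were). The median was −0.23. In the marker-rich cells 6 of 19 were called lower and 5 higher (7.29% and 8.38% of all genes), with a median of −0.12.

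Because miconazole inhibits sterol 14-demethylase in fungi, the mouse gene of that enzyme, Cyp51, is given with its pathway. It had 27 LPS and 24 LPS_MCZ UMIs in the endothelial cells, −0.10 [−0.96, 0.74]. Of 17 measured genes of cholesterol synthesis and uptake 4 were called higher and 0 lower (7.63% and 5.8% of all genes were). The list median was 0.09, or −0.24 with each cell weighted equally. Of 12 genes measured in the marker-rich cells 2 were called higher and 0 lower (8.38% and 7.29% of all genes). Their median was 0.11, or −0.41 weighted equally. Fdps, an early enzyme of the pathway, had 35 and 55 UMIs (0.70 [0.08, 1.37]), of which 44% of the LPS_MCZ UMIs lay in 1 cell. Ch25h, which makes the signalling sterol 25-hydroxycholesterol, stood at 168 and 32.8 CPM, −2.32 [−2.88, −1.87]. UMIs of Ch25h were found in 14.5% of LPS and 3.90% of LPS_MCZ cells.

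Outside the lists, the lowest called ratios with at least 200 UMIs included genes with little signal in lymphocytes. Inhbb, an activin subunit, stood at 162 and 48.0 CPM, −1.74 [−2.20, −1.34], and Tmem252 at 501 and 165 CPM, −1.59 [−1.83, −1.37]. Adamts9, a secreted matrix protease, stood at 180 and 71.1 CPM, −1.33 [−1.71, −0.98]. In lymphocytes none of the 3 exceeded 3 CPM in either library. Adamts9 stood at 267 and 102 CPM in cells with Car4 and Gpihbp1, but at 206 and 189 CPM in Vwf cells.

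The genes called higher outside the lists were mixed in function. Mapt, the microtubule protein tau, stood at 81.8 and 206 CPM, 1.32 [1.00, 1.67], and had UMIs in 25.4% of LPS and 41.6% of LPS_MCZ cells. Camk1d, a calcium-dependent kinase, stood at 654 and 1670 CPM, 1.35 [1.24, 1.47], and also at 390 and 695 CPM in lymphocytes. Mgp, a matrix protein that blocks calcification, had the highest ratio of these, 2.17 [1.88, 2.49], with 76% of its LPS_MCZ UMIs from 1 cell. Ackr2, a decoy receptor for inflammatory chemokines and an aerocyte gene, stood at 44.3 and 93.5 CPM, 1.06 [0.61, 1.56]. Gm42418, which overlaps ribosomal RNA, stood at 12454 and 24188 CPM in the endothelial cells and at 7442 and 17406 CPM in lymphocytes, so the libraries differed in this signal in both.

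**Figure D4:**
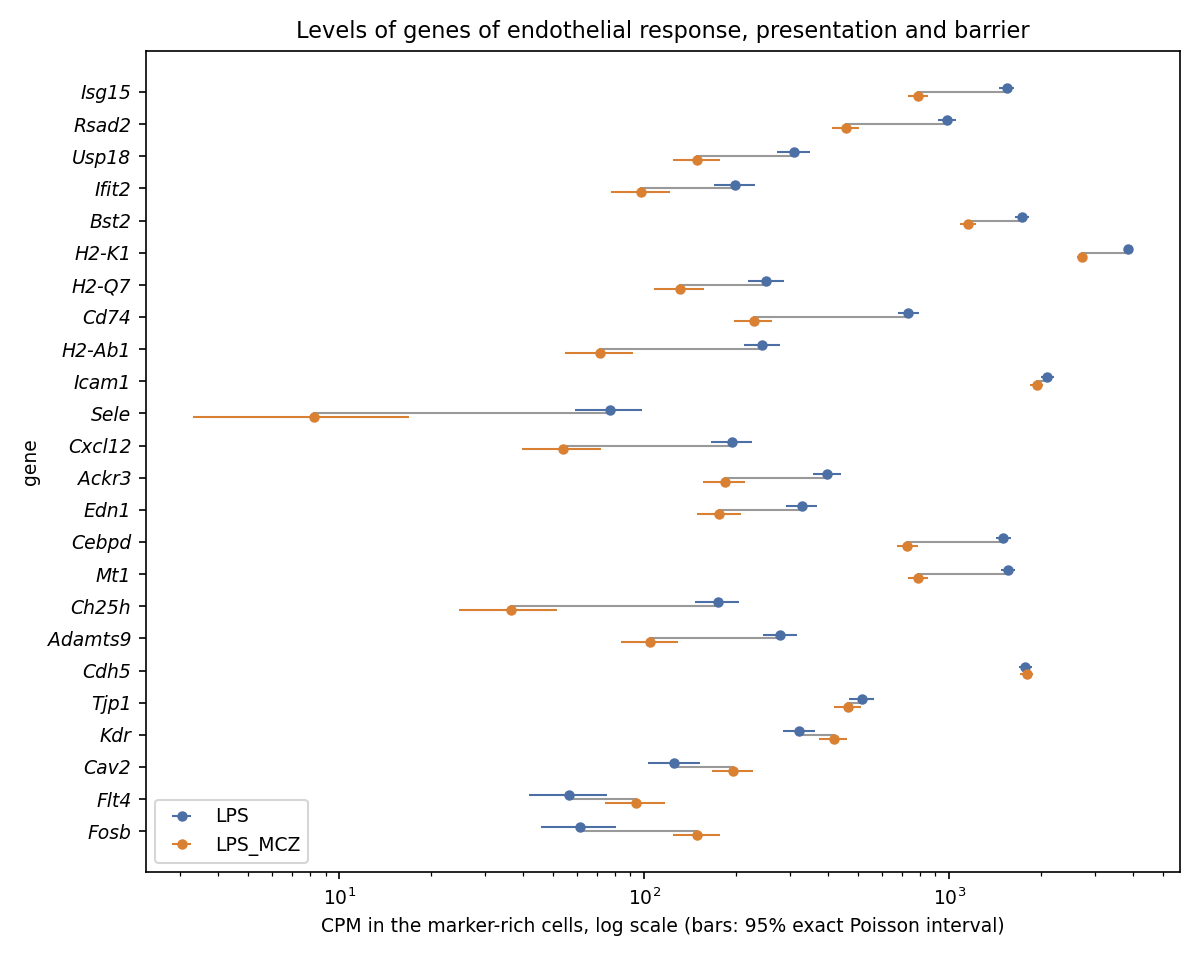
Points give the CPM (log scale) of each gene in the marker-rich cells of the LPS and LPS_MCZ libraries, with 95% exact Poisson intervals for counting error. LPS_MCZ points lie left of LPS points for the interferon, MHC, Cxcl12, Ackr3, Cebpd and Adamts9 genes, the points of Cdh5, Tjp1 and Icam1 nearly coincide, and Cav2, Flt4 and Fosb lie to the right.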

How the data were processed

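Single-cell libraries were 10x Genomics 3' version 3, 1 per group, from pooled left lower lung lobes, per the labels. The deposited matrices hold raw UMI counts per gene and barcode, made with Cell Ranger 7.0.0 per the file headers. The submitters' processing notes name bcl2fastq 2.20 and mm10. Intron counting, mouse numbers, the LPS dose and timing are not given in the sources used here. Depths were as follows. The libraries held 12577 and 8500 barcodes and 90597705 and 68467793 UMIs, and 12076 and 8314 cells were kept, at medians of 5809 and 6180 UMIs. They shared 243 barcodes, 1 of them among the endothelial cells.

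UMIs were summed per library and scaled to CPM (counts per 1e+06 UMIs) with numpy 2.4.6, scipy 1.17.1 and pandas 2.3.3. The call rule was also run on simulated Poisson counts with known changes. Those counts held no variation between cells or mice, so they cannot show how the calls fare under it. Genes with at least 50 UMIs over both libraries were measured. Shares have exact binomial (Clopper-Pearson) intervals, ratios exact conditional Poisson intervals and levels exact Poisson intervals, all for counting error. Cells are not replicates, so no test between groups was run. Equal-weight ratios average CPM over cells. Scrublet (scanpy 1.11.5) called 2 and 2 doublets automatically against expected rates of 10.1% and 6.8%, so it did not work here; removing the highest scores at those rates was an alternative.

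The members, gene lists and settings were chosen with earlier results of these data known. Genes named were the rule and vessel-type genes, up to 5 called genes per list with the largest ratios in size (or the 2 with most UMIs), and the 12 highest and 12 lowest called genes with at least 200 UMIs, leaving out genes open to free RNA. The picks were made in all cells and again in the marker-rich cells, and the text gives part of these. Others were named after their values were seen, among them Isg15, Ifit1, Ifit3, Ifitm2, Ifitm3, Bst2, Irf7, Gbp4, Cxcl10, B2m, Icam1, Selp, Nfkbia, Fos, Tjp1, Kdr, Flt1, Thbd, Mt1, Lcn2, Cyp51 and Gm42418. The vessel groups, the marker-rich cells and leaving out the 5 cells of most UMIs were added after seeing the data. Alternatives were a stricter cell filter, rule minimums of 3 and 6 UMIs, S100a8 and S100a9 at most 2%, no Ptprc or platelet UMIs, removal of doublet scores, thinning, other gene minimums, pseudocounts and scalings, and subtraction of free RNA.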

Additional observations from a re-analysis of the deposited data

How the results depend on the processing

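Under the alternatives the interferon list median stayed between −0.38 and −0.24, and the endothelial share was 0.138 to 0.279 percentage points higher in LPS_MCZ. The difference in the Car4 share ranged from 2.68 to 14.7 points, while those of Gpihbp1 (−7.43 to 0.782), Vwf (−5.48 to 4.02) and Prox1 or Mmrn1 (−0.548 to 2.73) took both signs. Genes called higher numbered 276 (and 383 lower) in cells without Ptprc or platelet UMIs, 135 with cells thinned to 2000 UMIs and 162 among genes with at least 200 UMIs, and genes called lower 178 and 172 under the last 2. Fewer genes were measured in these 3 (3629, 2047 and 2739). The immediate early median was −0.31 without Ptprc or platelet UMIs and −0.24 with the highest doublet scores removed, and the NF-κB median was 0.087 in the marker-rich cells; the cause was not tested. Of 71 genes compared between the libraries, 47 were called, and 42 of these kept 1 sign in every alternative that gave them a ratio (10 to 15). The exceptions were Ifitm1 (0.12 in marker-rich cells, 0.0054 thinned, 0.080 at equal weight), Ccl4 (0.58 in marker-rich cells), Vcam1 (−0.17 without the 5 cells of most UMIs, −0.16 at equal weight), Vwf (−0.23 at equal weight) and Fdps (−0.0083 with doublet scores removed).

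No paired analysis was possible because each group is 1 library and the labels give no replicate number. For the same reason there was no library to leave out. With 193 and 154 cells, ratios of genes under about 200 UMIs rest on few cells. So do those of some genes above that count, among them Vwf, Vcam1 and Mgp, with most LPS_MCZ UMIs in 1 cell. The 20 marker-rich cells with most UMIs held 41.5% of the LPS and 57.0% of the LPS_MCZ marker-rich UMIs.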
